A study of Mus musculus with 8 samples.

Results

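The AP-1 and Egr immediate early genes were read in mouse corneas with dry eye as 10 genes of the deposited mRNA table, taken by symbol (Fos, Fosb, Fosl1, Fosl2, Jun, Junb, Jund, Egr1, Atf3 and Nr4a1). All 10 were found among its 23597 rows, and all 10 passed the filter on low values, which left 12100 genes to test. Every mouse had received scopolamine, a muscarinic antagonist that dries the ocular surface, and corneas were taken on day 14. The 4 ICI libraries came from mice also given ICI 118551, a β2-adrenergic receptor antagonist, and the 4 Scop libraries from mice without it. Each library was made from 4 pooled corneas. The labels give no strain, sex, age or dose, and corneas without scopolamine were not analysed here. The labels do not tie pools to separate mice, so p-values measure the spread between these libraries. In whole corneas, less RNA per cell cannot be told apart from fewer cells of a type.

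Immediate early genes are transcribed within minutes of a signal, without new protein synthesis, and their transcripts decay quickly. AP-1 is a dimer of leucine zipper proteins. Jun proteins pair with each other or with Fos proteins, and Fos proteins need a Jun partner to bind DNA. Transcription of Fos and Egr1 is switched on through serum response factor and, downstream of cAMP, through CREB, the factor that binds the element TGACGTCA or its core TGACG. In corneal epithelium these genes are known to be induced by wounding. The comparison of ICI with Scop asks what differs in the stressed cornea when the β2-adrenergic receptor, one of the receptors through which catecholamines raise cAMP, is blocked.

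The 250 bases before the start of Fos, Junb, Nr4a1 and Jun are shown as examples. These genes had their highest level in ICI replicate 1, as did Fosb, Jund, Egr1 and Atf3, and the windows shown differ in the CREB core. Sequences are those of RefSeq on GRCm38.p6, printed 5′ to 3′ on the strand of the gene, and capitals mark TGACG or its reverse complement CGTCA. The windows are Fos chr12:85473640-85473889 (plus strand), Junb chr8:84978749-84978998 (minus), Nr4a1 chr15:101266596-101266845 (plus, inside the span of the gene and before a shorter transcript) and Jun chr4:95052223-95052472 (minus).
Fos: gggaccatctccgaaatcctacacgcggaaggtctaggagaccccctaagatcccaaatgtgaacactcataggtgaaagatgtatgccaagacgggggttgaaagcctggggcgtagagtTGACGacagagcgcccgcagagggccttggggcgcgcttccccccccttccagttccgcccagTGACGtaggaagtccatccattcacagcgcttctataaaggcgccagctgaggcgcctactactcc
Junb: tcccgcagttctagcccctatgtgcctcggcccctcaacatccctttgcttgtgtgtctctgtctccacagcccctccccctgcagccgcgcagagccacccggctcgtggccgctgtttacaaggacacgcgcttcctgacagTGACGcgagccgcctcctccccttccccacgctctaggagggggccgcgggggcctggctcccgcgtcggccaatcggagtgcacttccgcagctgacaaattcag
Nr4a1: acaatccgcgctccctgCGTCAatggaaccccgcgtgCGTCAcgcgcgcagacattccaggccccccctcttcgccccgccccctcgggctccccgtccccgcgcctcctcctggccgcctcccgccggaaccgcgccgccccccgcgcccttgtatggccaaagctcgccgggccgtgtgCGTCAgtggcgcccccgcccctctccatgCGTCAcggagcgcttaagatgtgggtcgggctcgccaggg
Jun: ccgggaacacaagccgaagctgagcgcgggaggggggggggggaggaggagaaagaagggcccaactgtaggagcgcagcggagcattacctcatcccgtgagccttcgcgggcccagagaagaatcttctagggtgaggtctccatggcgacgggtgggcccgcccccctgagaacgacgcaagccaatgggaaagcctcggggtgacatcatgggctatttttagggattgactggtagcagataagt
Fos held the core at positions -129 to -125 and -66 to -62 from its start, Junb at -106 to -102, and Nr4a1 at 4 places, of which the nearest lay at -40 to -36.

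RefSeq promoters matched 8 of the 10 genes by symbol, and Egr1 and Fosl1 had no entry. TGACG or CGTCA was in 5 of the 8, with Fosb (-60 to -56) and Atf3 (-7 to -3) beside the 3 above, against 17.8% of 32851 promoters of the same length. The whole element TGACGTCA, which contains the core on both strands, was in 0 of the 8 (1.55% of all), and the AP-1 site TGANTCA in 0 (6.75%). The stretch TGACATCA in the window of Jun matches neither pattern. The Egr site GCGNGGGCG, on either strand, was in Fosl2, Fosb and Nr4a1 (4.70% of all). The CArG box of serum response factor was in 0 of the 8 windows (1.47% of all). The window of Fosb runs into the printed span of the gene, where its TGACG lies, and the windows of Fosb, Fosl2 and Atf3 hold exons of GENCODE transcripts of these genes. These matches describe the letters of the windows only.

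Among the Fos family, Fos and Fosb had higher means in ICI with a wide spread, and Fosl1 and Fosl2 lay within the Scop range or near it. Values are FPKM, fragments scaled by transcript length and library depth, so levels can be set side by side between genes. Fos encodes the prototype Fos protein (chromosome 12, 85473890 to 85477274 of the mm10 build). It stood at 164, 73.7, 56.3 and 32.6 FPKM in ICI replicates 1, 2, 3 and 4, and at 36.6, 34.0, 39.6 and 30.2 in Scop replicates 1, 2, 3 and 4. ICI replicates 1, 2 and 3 lay above every Scop library, and ICI replicate 4 lay among them. The means were 81.6 ± 57.3 against 35.1 ± 3.99 FPKM (SD, n = 4 in both groups here and below). On the log2(FPKM + 1) scale, which understates changes of low genes, the difference was 0.96 (SE 0.38), and limma's adjusted p was 0.356.

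Fosb, which encodes a Fos protein with a short splice form known for its long life, lies on chromosome 7 (19302696 to 19310118). It was at 35.5, 18.0, 18.5 and 5.70 FPKM in ICI and 5.97, 9.94, 4.996 and 2.89 in Scop, in replicate order. As with Fos, 3 ICI libraries were above all of Scop and ICI replicate 4 was within it. The means of 19.4 ± 12.3 and 5.95 ± 2.96 FPKM gave a log2 difference of 1.42 (SE 0.46), with a limma adjusted p of 0.293. This was the smallest adjusted p of the 10 genes.

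Fosl2, which encodes Fra-2, was the most abundant Fos transcript in Scop and the steadiest gene of the 10 (chromosome 5, 32136472 to 32157840). Its 8 values ran only from 80.6 to 92.3 FPKM, with 83.0, 81.6, 88.3 and 89.4 in ICI and 92.3, 85.8, 91.6 and 80.6 in Scop. The groups overlapped throughout (log2 difference -0.03, SE 0.06, limma adjusted p 0.844). Fosl1, which encodes Fra-1, a Fos protein of migrating epithelium, had the lowest mean of the 10 in both groups, although Nr4a1 was below it in Scop replicates 3 and 4. It stood at 0.745, 1.38, 0.968 and 0.949 FPKM in ICI and 0.878, 1.82, 0.867 and 1.20 in Scop, on 50 to 122 fragments per library. Its log2 difference was -0.11 (SE 0.14), and it turned to 0.015 without Scop replicate 2. Fosl1 lies on chromosome 19 (5447698 to 5455938) and overlaps Ccdc85b on the other strand.

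**Figure D1:**
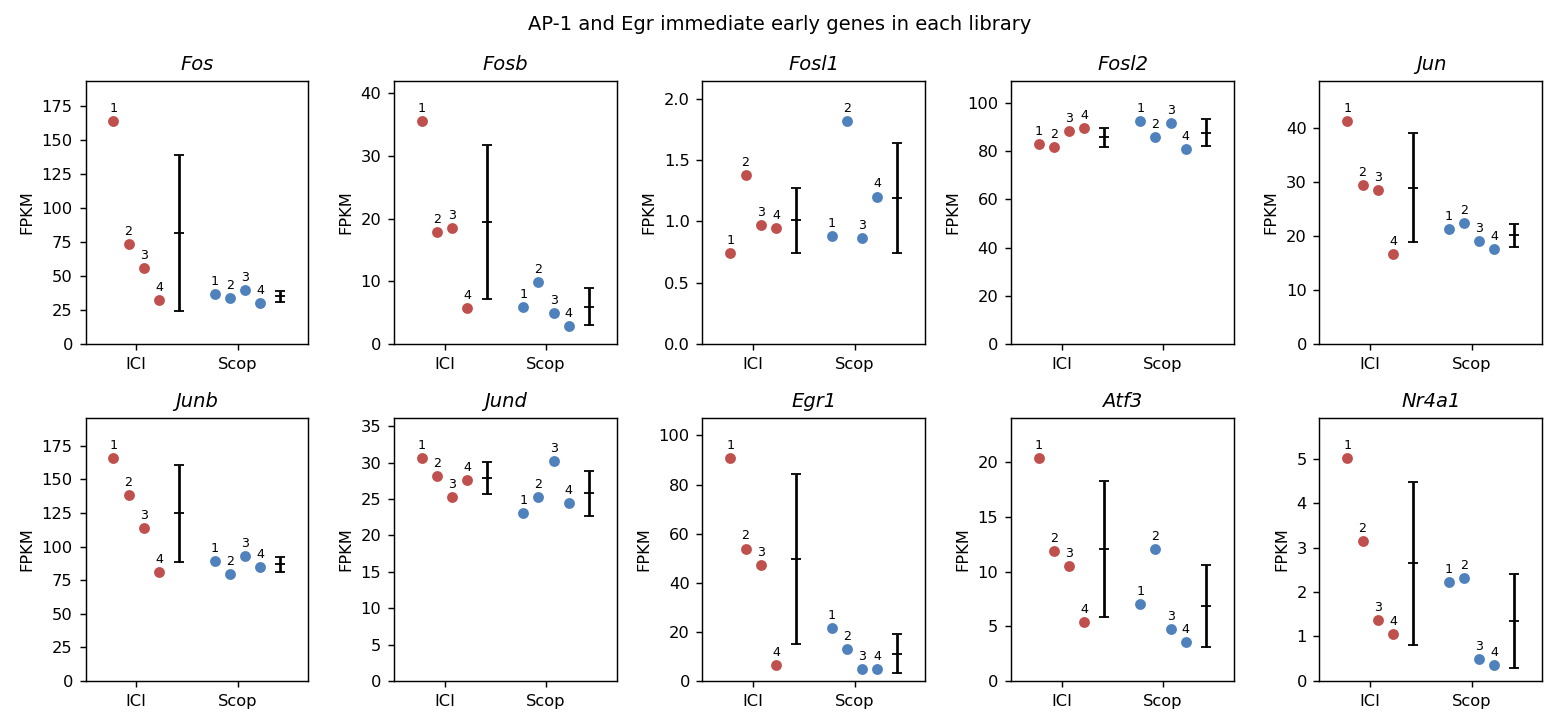
Expression of each gene in FPKM (vertical axes from 0, a separate scale per gene) in the 4 ICI and 4 Scop libraries, with replicate numbers beside the points and black bars for the mean ± SD. ICI replicate 1 was highest of its group in 8 of 10 genes and ICI replicate 4 lowest in 7, while Fosl2 stayed between 80.6 and 92.3 FPKM.

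Summed over the family, Fos transcripts came to 188 ± 66.6 FPKM in ICI and 130 ± 10.2 in Scop. In Scop, Fosl2 made up 67.6% ± 2.08 of that sum and Fos 27.0% ± 1.34. In ICI, Fosl2 made up 29.3% to 69.5% and Fos 25.4% to 57.9%. The ratio of Fos to Fosl2 within a library was 1.97, 0.903, 0.638 and 0.365 in ICI replicates 1, 2, 3 and 4, and between 0.374 and 0.432 in Scop. Fos therefore exceeded Fosl2 in ICI replicate 1 alone of the 8 libraries.

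**Figure D2:**
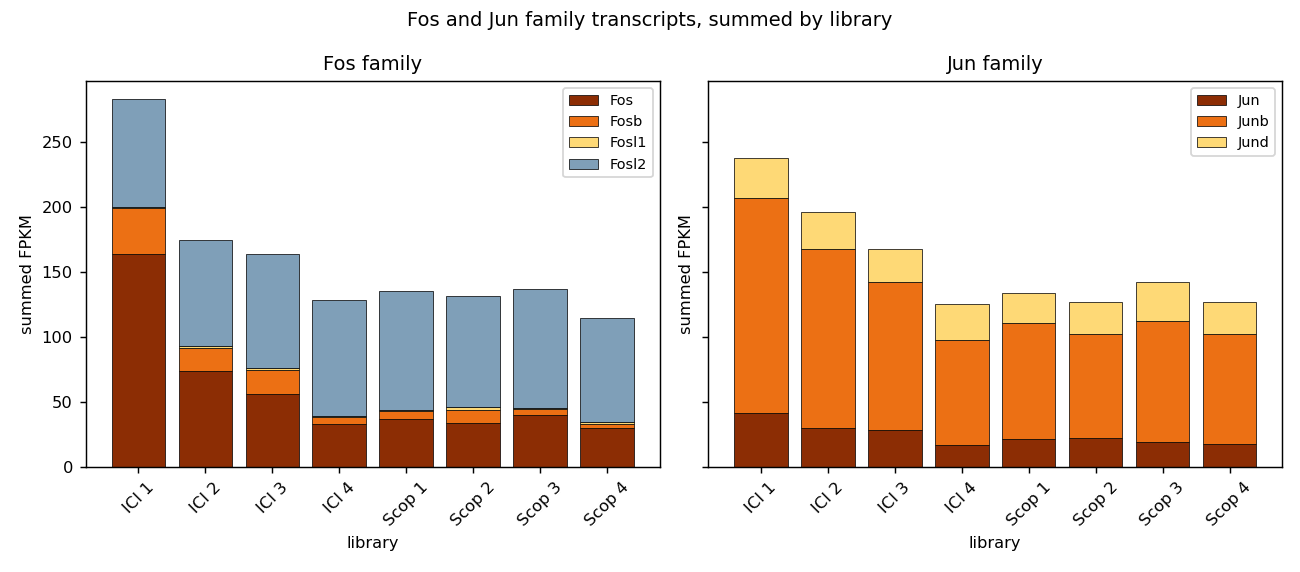
Summed FPKM (vertical axis) of the Fos family (left) and the Jun family (right) in each library, with a colour per gene. The Fosl2 and Jund segments vary little between libraries, whereas Fos, Fosb and Junb are tallest in ICI replicate 1.

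In the Jun family, Junb and Jun followed the order of Fos within ICI, where Jund varied less. In Scop the SD of log2(FPKM + 1) was 0.16 for Jund, 0.15 for Jun and 0.10 for Junb. Junb, which encodes a Jun protein that often restrains c-Jun, was the most abundant of the 3 in each library (chromosome 8, 84976909 to 84978748). It was at 166, 139, 114 and 81.04 FPKM in ICI and 89.2, 79.7, 93.1 and 84.7 in Scop. Again 3 ICI libraries were above all Scop libraries, and ICI replicate 4 was within their range. The log2 difference was 0.48 (SE 0.18), with a limma adjusted p of 0.340 and means of 125 ± 36.2 against 86.7 ± 5.80 FPKM.

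Jun, the gene of c-Jun (chromosome 4, 95049036 to 95052222), was at 41.3, 29.5, 28.5 and 16.7 FPKM in ICI and 21.4, 22.4, 19.2 and 17.6 in Scop. ICI replicate 4 was below every Scop library and the other ICI libraries above them all (log2 difference 0.44, SE 0.21, limma adjusted p 0.440). Jund, which encodes the Jun protein typical of resting cells (chromosome 8, 70697739 to 70700616), was at 30.7, 28.2, 25.3 and 27.6 FPKM in ICI and 23.1, 25.2, 30.2 and 24.5 in Scop. The groups overlapped (0.12, SE 0.09, limma adjusted p 0.619). Within the Jun family sum, Junb made up 68.3% ± 2.63 in ICI and 65.4% ± 1.97 in Scop. The ratio of Junb to Jund was 5.42, 4.91, 4.51 and 2.94 in ICI and 3.08 to 3.86 in Scop. Jun, Junb and Jund each overlap a gene of the other strand (Junos, Prdx2 and Gm11175), as do Fosl1 (Ccdc85b) and Atf3 (Gm24748). Whether reads were assigned by strand is not stated in the labels, so the levels of these genes are uncertain to that extent.

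Egr1, a zinc finger transcription factor gene of the early growth and wound response, had the largest difference and the widest spread. Its values were 90.9, 53.9, 47.1 and 6.56 FPKM in ICI and 21.6, 12.9, 5.01 and 4.66 in Scop. In ICI the highest library was 13.9 times the lowest, and in Scop 4.63 times, where Nr4a1 had 6.57 times. ICI replicate 4 was below Scop replicates 1 and 2. The means were 49.6 ± 34.6 against 11.02 ± 7.98 FPKM (log2 difference 1.86, SE 0.72, limma adjusted p 0.350). Counting error was small beside this spread, since the values rested on 516 to 10989 fragments.

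Atf3, a stress-induced partner of Jun proteins (chromosome 1, 191170296 to 191183333), was at 20.4, 11.9, 10.53 and 5.42 FPKM in ICI and 7.07, 12.1, 4.75 and 3.55 in Scop. Only ICI replicate 1 was above all Scop libraries, and Scop replicate 2 was at the level of ICI replicates 2 and 3. Its log2 difference was 0.72 (SE 0.38, limma adjusted p 0.486). Nr4a1, an orphan nuclear receptor gene induced by cAMP and calcium (chromosome 15, 101253902 to 101274795), was at 5.02, 3.15, 1.36 and 1.05 FPKM in ICI and 2.22, 2.32, 0.502 and 0.353 in Scop. ICI replicates 1 and 2 were above every Scop library, and ICI replicates 3 and 4 lay between the high and the low pair of Scop libraries. The log2 difference was 0.62 (SE 0.39, limma adjusted p 0.559), on 64 to 993 fragments. As a low gene it moved with the pseudocount, to 1.05 with 0.1 FPKM and 0.25 with 5 FPKM.

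None of the 10 genes was called at an adjusted p under 0.05 by limma, where 0% of the 12100 genes tested were called. Limma-voom on recovered fragments also called 0 genes. At an unadjusted p under 0.05, 4 of the 10 were higher in ICI (Fosb 0.0117, Junb 0.0229, Egr1 0.0267 and Fos 0.0291), against 4.56% of all genes tested. None was lower at that threshold, against 7.46% of all genes. Fosb, Junb and Egr1 were correlated with Fos over the same libraries (r of 0.90, 0.97 and 0.86), so the 4 are not independent of each other. The 10 genes were also chosen with earlier results of these data known. The count of 4 was 2 without ICI replicate 1, 1 without ICI replicate 2, 2 without Scop replicate 4 and 6 without ICI replicate 4. No gene of the 10 separated the groups fully in either direction, where 2.63% of all genes did so as higher and 4.36% as lower. In an exact two-sided permutation test of 4 against 4, which can reach 0.0286, p was 0.0857 for Fosb and Egr1, 0.114 for Fos and Junb, and 0.171 or more for the others.

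The size of the differences depended on single libraries. Without ICI replicate 1 the log2 difference was 0.54 for Fos, 0.26 for Jun, 0.44 for Atf3, 0.33 for Nr4a1 and 0.07 for Jund. In the same fit it was 1.42 for Egr1, 1.06 for Fosb and 0.32 for Junb. Without ICI replicate 4 it was 1.31 for Fos, 2.62 for Egr1 and 0.68 for Jun, and limma's adjusted p for the 3 was 0.246, 0.184 and 0.188. Nr4a1 stood at 0.39 without Scop replicate 4, and Jund at 0.19 without Scop replicate 3.

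**Figure D3:**
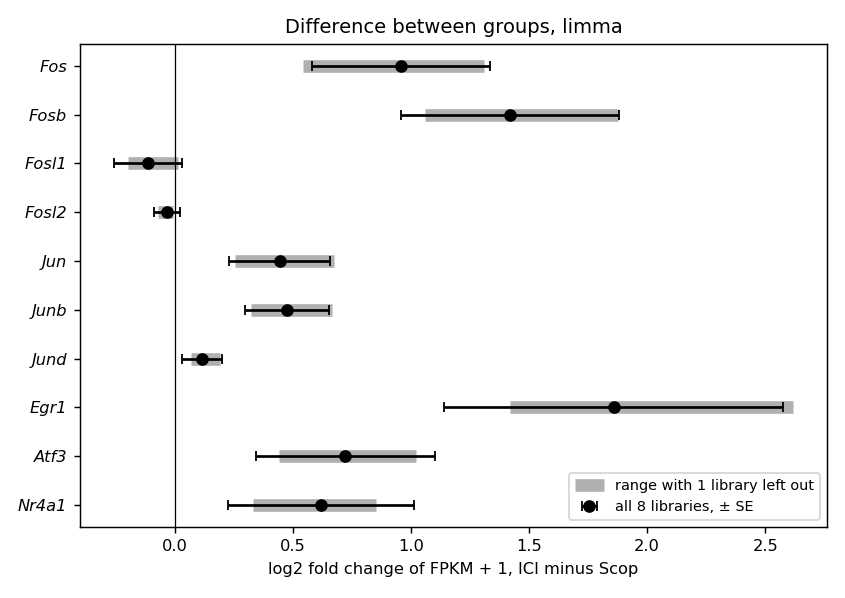
Log2 fold change of FPKM + 1, ICI minus Scop (horizontal axis), for each gene, with points and bars for limma's estimate ± SE over 8 libraries and grey bands for the range with 1 library left out. Egr1 (1.86) and Fosb (1.42) lie farthest to the right, Fosl2 (-0.03) lies at 0, and the band of Fosl1 crosses 0.

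Ordered by mean FPKM, Scop ran Fosl2, Junb, Fos, Jund, Jun, Egr1, Atf3, Fosb, Nr4a1 and Fosl1. Neighbours in this order overlapped in range except Junb over Fos, Jund over Jun and Fosb over Nr4a1. In ICI the order was Junb, Fosl2, Fos, Egr1, Jun, Jund, Fosb, Atf3, Nr4a1 and Fosl1, and only Atf3 over Nr4a1 was free of overlap. Egr1 stood at rank 6 in Scop and rank 4 in ICI. In ICI replicate 4 Egr1, at 6.56 FPKM, was below Jun and Jund (16.7 and 27.6), as in Scop replicates 2, 3 and 4.

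The genes differed in how they varied inside a group. The SD of log2(FPKM + 1) among ICI libraries was 1.58 for Egr1, the highest of all 12100 genes tested, 1.01 for Fosb and 0.95 for Fos. Fosb and Fos were at the 99.98 and 99.95 percentiles of all genes, and Jun (0.52) and Junb (0.44) at 99.3 and 98.8. Among Scop libraries Egr1 (0.97), Atf3 (0.66), Nr4a1 (0.69) and Fosb (0.62) were again above the 99th percentile. In contrast Fos (0.16), Jun (0.15) and Junb (0.10) were at 73.3, 69.1 and 40.7 there. Whether the spread differs between the groups was not tested. Fosl2 was at 23.4 in ICI and 36.9 in Scop, and Jund at 56.3 and 73.0. The relative counting error was at most 8.88% for 9 genes and 12.5% for Fosl1.

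**Figure D4:**
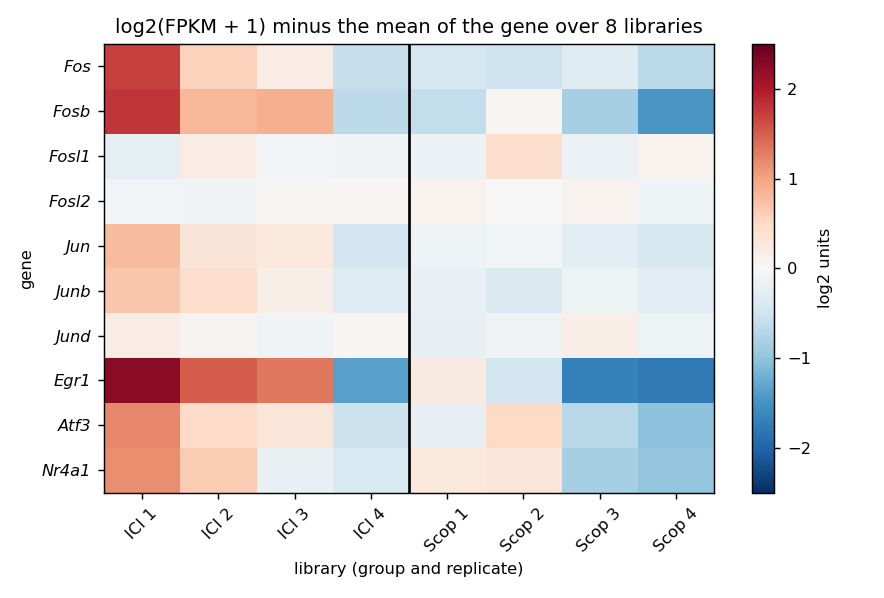
Log2(FPKM + 1) of each gene (rows) in each library (columns) minus the mean of that gene over the 8 libraries, in log2 units, with ICI left of the line. Egr1, Fosb, Fos, Atf3 and Nr4a1 are highest in ICI replicate 1, and Scop replicate 4 holds the lowest Scop value in 7 of 10 genes.

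Within ICI most of the 10 genes shared the highest and the lowest library, and within Scop most shared the lowest but not the highest. ICI replicate 1 held the highest ICI value in 8 of 10 genes (all but Fosl1 and Fosl2), and ICI replicate 4 the lowest in 7. In Scop the highest library was replicate 2 for 5 genes, replicate 3 for 3 and replicate 1 for 2. Scop replicate 4 was the lowest for 7 genes. Each other gene was correlated with Fos over the 8 libraries in log2(FPKM + 1), with exact permutation p adjusted over the 9 relations. Pearson's r was 0.97 for Junb, 0.95 for Jun, 0.90 for Fosb and 0.86 for Egr1 (adjusted exact permutation p 0.00268, 0.00419, 0.00419 and 0.00419). Spearman's rho for the same 4 was 0.90, 0.88, 0.81 and 0.86 (adjusted exact permutation p 0.0321, 0.0321, 0.0490 and 0.0321). Without ICI replicates 1 and 2, the libraries farthest from the median of Fos, r was 0.95, 0.85, 0.81 and 0.77, and with group means subtracted 0.95, 0.92, 0.83 and 0.76.

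For Atf3 and Nr4a1, r with Fos was 0.81 and 0.77 (adjusted exact permutation p 0.0181 and 0.0307), and rho 0.67 and 0.71 (0.107 and 0.104). Without the same libraries r was 0.52 for Atf3 and 0.18 for Nr4a1, so the relation of Nr4a1 with Fos rested on them. Jund had r = 0.60 (adjusted exact permutation p 0.130, rho 0.67 with 0.107), and 0.07 without these libraries. Fosl1 and Fosl2 had r of -0.36 and -0.38 (both adjusted exact permutation p 0.379; rho -0.36 and -0.05, adjusted 0.438 and 0.935).

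Outside the 10, the genes whose pattern over the 8 libraries was most like their mean standardised pattern, of 11531 genes ranked, were C1d (r = 0.97), Dusp1, Ier2, Ikbkg and Nrarp (all 0.95). These are descriptions, since the genes were picked for r. Dusp1, a MAP kinase phosphatase gene, was at 107, 77.5, 53.7 and 40.7 FPKM in ICI and 48.9, 39.05, 44.0 and 29.4 in Scop. Ier2, itself an immediate early gene, was at 69.9, 54.7, 46.7 and 40.2 in ICI and 39.8, 42.5, 37.0 and 37.2 in Scop. C1d, an RNA exosome cofactor gene, Ikbkg, the regulatory subunit gene of the IκB kinase, and Nrarp, a Notch feedback gene, varied far less. Their means were 20.2 ± 1.12 against 18.7 ± 0.679, 5.85 ± 0.402 against 5.37 ± 0.200 and 44.6 ± 3.04 against 40.8 ± 2.98 FPKM.

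Among 30 other immediate early genes, 25 could be tested, of which 16 had positive and 9 negative log2 differences, with a median of 0.14 against -0.02 over all 12100 genes. At an unadjusted p under 0.05, 7 of the 25 were higher and 0 lower, where 4.56% of all genes tested were higher and 7.46% lower, and 0 passed after adjustment. The 4 with the smallest p were Klf10, a TGF-β-inducible zinc finger gene (0.23, SE 0.07), Ccn1, a matricellular protein gene (0.43, SE 0.14), Ier2 (0.40, SE 0.14) and Dusp1 (0.71, SE 0.26). Within ICI, Ccn1, Ier2 and Dusp1 had the library order of Fos, while Klf10 was highest in ICI replicate 2. The count of 7 is therefore not separate from that of the 10 genes, and it was not examined with single libraries left out. Klf10 was the 1 gene of the 25 without overlap between groups, at 7.22 to 8.64 FPKM in ICI and 6.24 to 7.20 in Scop, a share near the 2.63% of all genes that were higher without overlap. Several early genes had negative differences, among them Myc (-0.16, SE 0.09), Klf6 (-0.14, SE 0.08) and Per1 (-0.39, SE 0.19), none with an unadjusted p under 0.05.

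**Figure D5:**
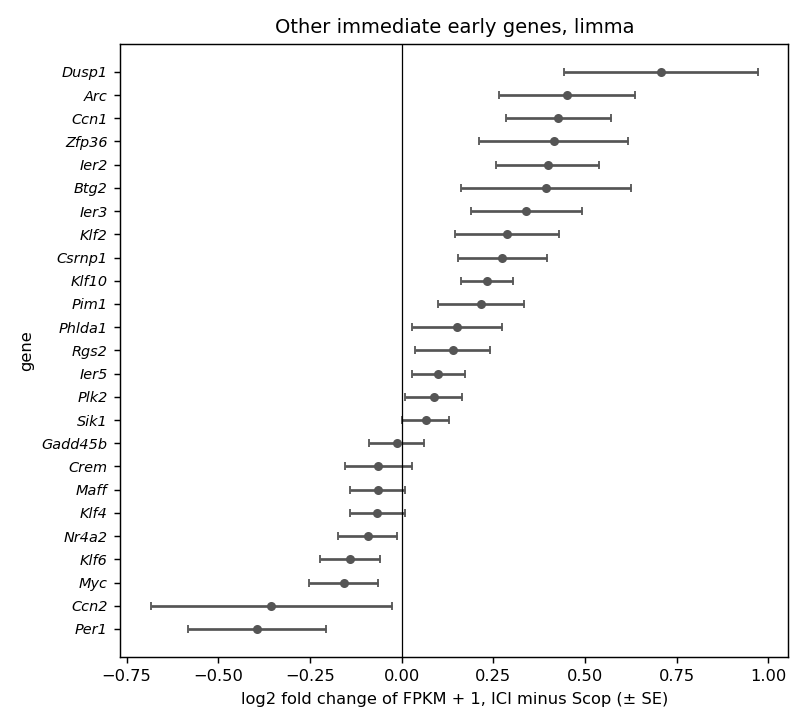
Log2 fold change of FPKM + 1, ICI minus Scop (horizontal axis, ± SE from limma), of the 25 tested genes among the other immediate early genes (vertical axis, sorted). Dusp1 (0.71) lies farthest to the right and Per1 (-0.39) farthest to the left.

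Genes that act upstream of the 10 (serum response factor and its partners, CREB with its coactivators, and MAP kinases) had a median log2 difference of -0.01 over 24 tested, with 10 positive and 14 negative values. At an unadjusted p under 0.05, 0 were higher and 1 lower, Map2k2 (-0.17, SE 0.06), a kinase that activates ERK, against 4.56% and 7.46% of all genes. Mrtfa, a coactivator of serum response factor, Mapk14, the p38α kinase gene, and Prkacb, a catalytic subunit gene of protein kinase A, had -0.14 (SE 0.08), -0.16 (SE 0.07) and 0.21 (SE 0.10). Of 15 tested feedback regulators of MAP kinase and Egr, 10 were positive and 5 negative (median 0.05), with 3 higher and 1 lower at an unadjusted p under 0.05 (4.56% and 7.46% of all genes). Nab2 and Nab1, genes of corepressors that bind Egr proteins, did not overlap between groups, with Nab2 higher and Nab1 lower in ICI. Without overlap, 2.63% of all genes were higher and 4.36% lower. Nab2, which Egr1 is known to induce, was at 19.8, 20.8, 19.7 and 18.6 FPKM in ICI and 16.2, 16.6, 17.4 and 16.9 in Scop (0.22, SE 0.05, limma adjusted p 0.188). Nab1 was at 14.3 to 16.1 in ICI and 16.7 to 19.1 in Scop (-0.18, SE 0.06, limma adjusted p 0.316). Zfp36l1, an mRNA decay factor gene, and Dusp1 completed the named genes of this list, with 0.23 (SE 0.08) and 0.71.

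Of 15 tested bZIP genes whose products can pair with AP-1 proteins, 6 were positive and 9 negative (median -0.02). Batf2, which encodes an interferon-induced partner of Jun proteins, was higher at an unadjusted p under 0.05 (1.24 ± 0.130 against 0.897 ± 0.104 FPKM, limma adjusted p 0.293). At that threshold 4.56% of all genes tested were higher. The groups of Batf2 did not overlap, where 2.63% of all genes were higher without overlap. Atf4, of the integrated stress response, and Jdp2, a Jun-binding repressor, had -0.13 (SE 0.07) and -0.09 (SE 0.06). Among 16 tested genes known as AP-1 or Egr targets, 7 were positive and 9 negative (median -0.01), with 1 higher and 3 lower at an unadjusted p under 0.05 (4.56% and 7.46% of all genes). Hbegf, an EGF receptor ligand gene, was the higher, at 84.1, 86.8, 74.2 and 46.6 FPKM in ICI and 60.4, 51.2, 47.8 and 36.4 in Scop, again with ICI replicate 4 lowest of its group. Plaur, the urokinase receptor gene (0.895 ± 0.164 against 1.92 ± 0.741 FPKM), Spp1, which encodes osteopontin (7.92 ± 0.491 against 11.2 ± 2.25), and the cytokine gene Il1a (14.7 ± 3.13 against 18.7 ± 2.30) were the lower. Plaur and Spp1 did not overlap between groups, where 4.36% of all genes were lower without overlap. No gene of these 4 lists passed after adjustment over all genes.

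Markers of corneal epithelium summed to between 34554 and 39408 FPKM. The 7 leukocyte markers summed to 58.1 to 65.4 FPKM in ICI and 47.7 to 68.4 in Scop, mostly from Itgam (21.9 to 28.8), Lyz2 and Cd68, while Ptprc and Cd3e were at most 0.255 and 0.132. All 5 leukocyte markers tested had positive differences, none with an unadjusted p under 0.05. Fragments per library lay between 34354346 (Scop replicate 3) and 39885822 (Scop replicate 1). Keratocyte and stromal markers summed to 2167, 2063, 1705 and 1578 FPKM in ICI and 1887, 1579.5, 564 and 1746 in Scop, with 7 of 7 log2 differences positive. Within ICI their order was that of Fos and Egr1. In Scop the lowest stromal sum was in replicate 3, where Fos, Junb and Jund were highest and Fosl1 lowest. Egr1, Atf3, Nr4a1, Fosb and Jun were lower there than in Scop replicates 1 and 2, and higher than in Scop replicate 4. Without Scop replicate 3 the log2 difference was 1.02 for Fos and 1.61 for Egr1. Endothelial markers summed to 534 to 615 FPKM in ICI and 544 to 579 in Scop. Among them Slc4a11, Col8a1 and Col8a2 were at 41.4, 14.6 and 85.4 in ICI replicate 1, and at most 16.1, 4.33 and 38.8 in the other ICI libraries. The conjunctival keratin genes Krt4 (-0.34, SE 0.14) and Krt19 (-0.31, SE 0.12) had unadjusted limma p of 0.0305 and 0.0246, and 3 of 3 tested conjunctival markers were negative. The loci Gm26917, AY036118 and Lars2, which collect ribosomal RNA reads, summed to 3826 to 3995 in ICI and to 717, 954, 1177 and 5113 in Scop. Their median log2 difference was 1.45, and 3 of 3 were higher at an unadjusted limma p under 0.05 (4.56% of all genes). Squamous keratins and envelope genes summed to 2426 to 2667 in ICI and 2334 to 3802 in Scop, highest in Scop replicate 3. Of the 5 tested, 4 had negative log2 differences (median -0.88), and 2 were lower at an unadjusted limma p under 0.05 (7.46% of all genes). The part of stromal, endothelial, conjunctival, leukocyte or squamous content, or of ribosomal reads, in the values of the 10 genes was not tested.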

How the data were processed

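RNA was sequenced from 8 libraries of pooled mouse cornea (Illumina NovaSeq, Vazyme VAHTS kit, per the labels' protocols). The authors deposited 1 table of FPKM values, 1 column per library, and no scaling between libraries is stated. The tools fastp, HISAT2 and HTSeq and the build mm10 are named in the submitters' processing notes, and neither notes nor labels give versions, annotation or strand setting. Columns were matched to libraries by title. Whole fragments were worked out from step sizes in FPKM (ratios read within a relative tolerance of 5e-13, whole within 0.01) for 99.7% of genes. The main test was limma 3.58.1 in R 4.3.3 (trend) on log2(FPKM + 1), two-sided, over genes averaging 0.5 FPKM or more, with Benjamini-Hochberg adjustment over all of them at 0.05. Single genes were also compared by an exact permutation test in Python 3.11.15 and scipy 1.17.1. The members and lists were chosen with earlier results of these data known. All 10 members are named, with the 5 genes most like them (without predicted models) and up to 4 genes per list by smallest p. Per1, Myc, Klf6, Ptprc, Cd3e, Itgam, Lyz2, Cd68, Slc4a11, Col8a1, Col8a2, Krt4, Krt19, Nr4a2, Nr4a3 and Egr3 were named after their values were seen. A named gene of the lists is not reported here. Gene lists overlap, as Dusp1, Zfp36 and Maff are each in 2. Coordinates are those of RefSeq genes on GRCm38.p6, the build of mm10, 1-based, and overlaps are from GENCODE M21. Alternatives were other pseudocounts, filters, scalings and variance models, limma-voom, a replicate block and leaving out each library.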

Additional observations from a re-analysis of the deposited data

Results flagged for a closer look

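Of 64 groups of 4 libraries looked at (the 10 genes, the genes named from the lists and the 5 most alike genes, in ICI and in Scop), 1 held a library far from the other 3. Mapk14 was at 27.4 FPKM in ICI replicate 2, while the other ICI libraries lay between 32.8 and 33.6 FPKM. The rule used (Dixon's ratio above its 95% critical value for 4 samples) picks about 1 group in 20 by chance. None of the 10 immediate early genes held such a library.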

How the results depend on the processing

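Of 178 values of the 10 genes under the alternatives, 177 kept their direction and 0 passed at an adjusted p under 0.05 (lowest 0.179, Nr4a1 with the replicate block). The exception was Fosl1, which ran from -0.20 to 0.015 with 1 library left out and was positive without Scop replicate 2. With 1 library left out, 0 to 6 genes of the whole table were called (1 without Scop replicate 1, 1 without Scop replicate 3 and 6 without Scop replicate 4), none of them among the 10. Under the other alternatives 0 were called. The count of members with an unadjusted p under 0.05, 4 as reported, was 2 with no filter and 2 with robust estimation. It ran from 1 to 6 with 1 library left out. Genes of the whole table higher at that threshold numbered 552, against 862 with no filter and 318 with a filter of 5 FPKM, which removed Fosl1 and Nr4a1. After median-ratio scaling the split was 734 higher and 676 lower, and after quantile normalisation 728 and 717, against 552 and 903, while no scaling moved the median of all genes by more than 0.0153. Replicate numbers were not taken to pair the libraries, since deviations of same-numbered libraries correlated at 0.29, -0.01, 0.14 and 0.08 across genes, and ICI replicate 2 correlated best with Scop replicate 1 (0.096), and ICI replicate 4 with Scop replicate 3 (0.14). Egr1 nevertheless had the same order of replicate numbers in both groups, and its unadjusted limma p was 0.000685 with the replicate block against 0.0267 without. With the replicate block 7 members had an unadjusted p under 0.05 and 0 genes were called.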

Other observations

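The other Egr and Nr4a genes were low or overlapped between groups. Egr3 was at 0.578, 0.440, 0.528 and 0.180 FPKM in ICI and 0.658, 0.313, 0.0491 and 0.181 in Scop. Nr4a3 was at 0.167, 0.321, 0.163 and 0.264 FPKM in ICI and 1.04, 0.893, 0.186 and 0.175 in Scop, and so was highest in Scop replicates 1 and 2. These are the Scop libraries in which Nr4a1, Atf3 and Egr1 were also highest. Nr4a2, at 7.17 ± 0.526 FPKM in ICI and 7.73 ± 0.795 in Scop (SD, n = 4), had a log2 difference of -0.09 (SE 0.08).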
